A study of Mus musculus with 11 samples.

Results

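The genes that encode the proteins of the cytoplasmic ribosome were examined in primary bone marrow mesenchymal stromal cells of the mouse. Members were taken by name: symbols of the Rpl and Rps series, the stalk genes Rplp0, Rplp1 and Rplp2, and Rpsa. This gave 84 genes of the 18712 present in both deposited tables, and 1 more, Rps3a3, present only in the ANXA5 table. Of these 85 genes, 50 belong to the large (60S) subunit, stalk included, and 35 to the small (40S) subunit. The filter on low values kept 83 members in either table, of 16123 tested genes in the ANXA2 table and 16224 in the ANXA5 table. Those left out were Rpl6l in both tables and Rps3a3 in the ANXA5 table, all at fewer than 12 normalised reads in any wild type library.

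The libraries fell into 3 groups: 3 from cells with a knockout of ANXA2, 4 from cells with a knockout of ANXA5, and 4 from wild type cells. All came from C57/BL6 mice and were untreated. Neither the deleted part of each annexin gene nor separate animals or cultures are stated in the labels, so p-values reflect spread among these samples that may be technical. ANXA2 knockout libraries are called 1, 3 and 4 after their columns, whose numbers differ from those of the sample titles.

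Reads over the genes of the tables came to 26.1 to 35.7 M in the knockout libraries and 23.3 to 29.1 M in the wild type libraries. Levels are given as normalised reads, the count of a gene divided by the size factor of its library. Anxa2 averaged 8542 ± 1691 normalised reads in ANXA2 knockout libraries and 29822 ± 1354 in wild type libraries (SD, n = 3 and 4). Anxa5 averaged 2359 ± 57.4 in ANXA5 knockout libraries and 25529 ± 1704 in wild type libraries (SD, n = 4 each). Xist, the RNA of the inactive X chromosome in females, ran from 203 to 652 normalised reads in the ANXA2 knockout and, in its table, from 0.959 to 1997 in the wild type. In the ANXA5 knockout it ran from 2.07 to 1676. Libraries high and low in Xist thus stood in the same group in the wild type and in the ANXA5 knockout. No ANXA2 knockout library was as low in Xist as the lowest libraries of those groups. All 12 listed stromal markers, among them Col1a1 and Dcn, were tested, and they summed to at least 814621 normalised reads in each ANXA2 knockout library and at least 663454 in each wild type library. RNA of blood cells was present in all libraries too, as given with the comparisons.

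One ribosomal protein gene lies outside the set by the rule. Rpl29, which encodes a protein of the large subunit, had 115, 126 and 178 normalised reads in ANXA2 knockout libraries, against 1431, 1359, 1123 and 1444 in wild type libraries (limma adjusted p = 0.000193). It was one of the 18 genes called in that comparison, that is, with an adjusted p under 0.05 over all tested genes. In the ANXA5 knockout it averaged 1543 ± 119, against 1469 ± 158 in the wild type (SD, n = 4 each). Rpl29 lies on chromosome 9, as Anxa2 does, and any part of that location in its level was not tested. None of the counts below includes Rpl29.

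Ribosomal proteins are made in near equal numbers, since each mature ribosome holds a single copy of most of them. Their mRNAs are abundant and short. Many begin with a run of pyrimidines at the cap, the 5′ terminal oligopyrimidine or TOP motif, through which the mTORC1 pathway and the RNA-binding protein Larp1 set how strongly the mRNAs are translated and how stable they are. Elongation factors and several other parts of the translation machinery carry the same motif. In stromal cells, as in other growing cells, ribosome production follows growth and nutrient supply.

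Because members shifted together from library to library, as described next, the starts of 6 of them are shown here. RefSeq promoter entries on GRCm38.p6 were found for 62 of the 85 members. Each line runs from 40 bases before to 20 bases after the annotated start, 5′ to 3′ on the strand of the gene, with the longest run of C or T in capitals.
Rpl7a (chr2:26910767-26910826, plus strand): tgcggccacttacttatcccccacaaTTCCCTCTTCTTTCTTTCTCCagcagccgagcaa
Rpl35 (chr2:39005112-39005171, minus strand): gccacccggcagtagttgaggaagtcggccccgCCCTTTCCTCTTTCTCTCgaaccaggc
Rpl4 (chr9:64173347-64173406, plus strand): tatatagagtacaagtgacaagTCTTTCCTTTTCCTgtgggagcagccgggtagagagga
Rpl28 (chr7:4792925-4792984, plus strand): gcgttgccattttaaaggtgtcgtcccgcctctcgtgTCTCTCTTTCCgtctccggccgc
Rps3a1 (chr3:86142649-86142708, minus strand): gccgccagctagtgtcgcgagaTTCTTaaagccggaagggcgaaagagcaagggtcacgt
Rpl22l1 (chr3:28805468-28805527, plus strand): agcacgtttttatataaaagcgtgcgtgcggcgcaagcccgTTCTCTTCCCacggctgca
The run in Rpl7a, 21 bases long, was the longest among members. That of Rpl35 was 18 bases long, that of Rpl4 14 and that of Rpl28 11. The runs of Rpl7a, Rpl35 and Rpl28 crossed the annotated start, while that of Rpl4 lay wholly before it. Rps3a1 held no run over 5 bases in this window, and Rpl22l1 held its 10-base run just after the annotated start. A run of at least 8 bases was present in 52.7% of 74 member entries, against 24.2% of all 32851 entries. In the whole 300-base entries, on either strand, CCGGAAG, the core bound by ETS family factors, occurred in 36.5% of member entries, against 8.86% of all. The 6 letters CTTTCC occurred in 48.6%, against 26.6%. AAGATGGC, the core of the YY1 motif, occurred in 10.8%, against 2.75%, and TATAAA in 9.46%, against 13.6%. CTTTCC and CCGGAAG can share 2 letters, and the C or T runs can contain CTTTCC. These matches are descriptions of letters, not of bound sites.

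Levels of the tested members in the wild type libraries of the ANXA2 table had a median of 1330 normalised reads. Rplp0, the scaffold of the ribosomal stalk, averaged 10722 ± 1094 normalised reads in those libraries (SD, n = 4). Rpl4, whose protein lines the exit tunnel for the nascent chain, averaged 10048 ± 1368. Per kilobase of annotated mRNA the highest levels were 10391 normalised reads for Rpl13, 7895 for Rplp0, 6533 for Rpl4 and 6142 for Rps9. The lowest per kilobase were 15.2 for Rpl3l, the form of Rpl3 known from heart and skeletal muscle, and 31.7 for Rpl39l, the form of Rpl39 known from testis. Ribosomal protein genes have many processed pseudogenes, and how reads matching several places were counted is not given in the sources used here, so levels of single members are uncertain. Rps4l, Rps3a2, Rpl6l and Rps3a3 are annotated as pseudogenes themselves in GENCODE vM21.

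The members shifted together between libraries of the same genotype. For each gene, the log2 value in a library was set against the mean of the wild type libraries. In the ANXA2 table the median of the 83 members was -0.38, -0.25 and 0.32 in ANXA2 knockout libraries 1, 3 and 4, against 0.18, 0.11, -0.43 and 0.14 in wild type libraries 1 to 4. Knockout libraries 1 and 3 and wild type library 3 were low, and knockout library 4 was the highest of all. In the ANXA5 table the medians were 0.060, 0.13, 0.17 and -0.060 in ANXA5 knockout libraries 1 to 4, within the range of the wild type libraries. Over all tested genes the same medians lay between 0.00 and 0.026 in every library of the 2 tables.

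**Figure D1:**
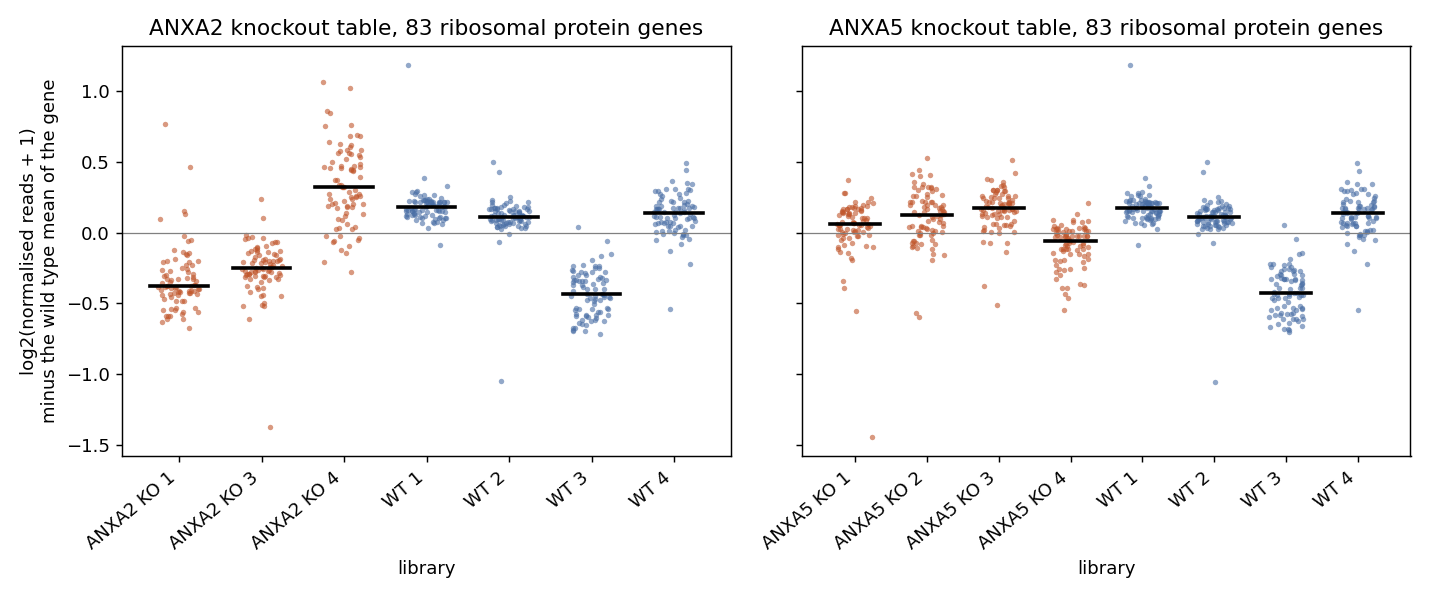
Log2 level of each of the 83 tested ribosomal protein genes, relative to the mean of the gene over the 4 wild type libraries, by library (knockout orange, wild type blue, black line the median). Wild type library 3 had a median of -0.43 and ANXA2 knockout library 4 one of 0.32, while the ANXA5 knockout libraries lay between -0.060 and 0.17.

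Wild type library 3 was the lowest wild type library in 79 of 83 members, against 26% of all tested genes in the ANXA2 table and 24.8% in the ANXA5 table. The 4 exceptions were all paralogs of another member: Rpl3l, Rpl7l1, Rpl39l and Rps4l. These exceptions were noticed after their values were seen. Among all 7 libraries of the ANXA2 table, knockout library 1 was the lowest in 23 members (27.7%, against 18.4% of all tested genes) and wild type library 3 in 55 (66.3%, against 13.02%). Knockout library 4 was the highest in 53 members (63.9%, against 18.6% of all tested genes) and wild type library 1 in 22 (26.5%, against 18.2%).

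Both subunits shared this order. In ANXA2 knockout libraries 1, 3 and 4 the median of the 34 small subunit members was -0.40, -0.26 and 0.36, against -0.47 in wild type library 3. For the 46 large subunit members without the stalk it was -0.37, -0.23 and 0.23, against -0.40 in wild type library 3.

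The summed share of reads showed the same libraries apart. Members took 0.455, 0.509 and 0.755% of the reads of ANXA2 knockout libraries 1, 3 and 4, against 0.773, 0.751, 0.477 and 0.697% in the wild type. Shares in the ANXA5 knockout were 0.673, 0.708, 0.789 and 0.628%. The mean was 0.573 ± 0.160% in the ANXA2 knockout and 0.674 ± 0.136% in the wild type (SD, n = 3 and 4), and 0.700 ± 0.068% in the ANXA5 knockout (SD, n = 4). The difference of -0.101 percentage points for ANXA2 and of 0.025 for ANXA5 was in each case smaller than the SD of the wild type libraries. The groups overlapped in both comparisons.

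**Figure D2:**
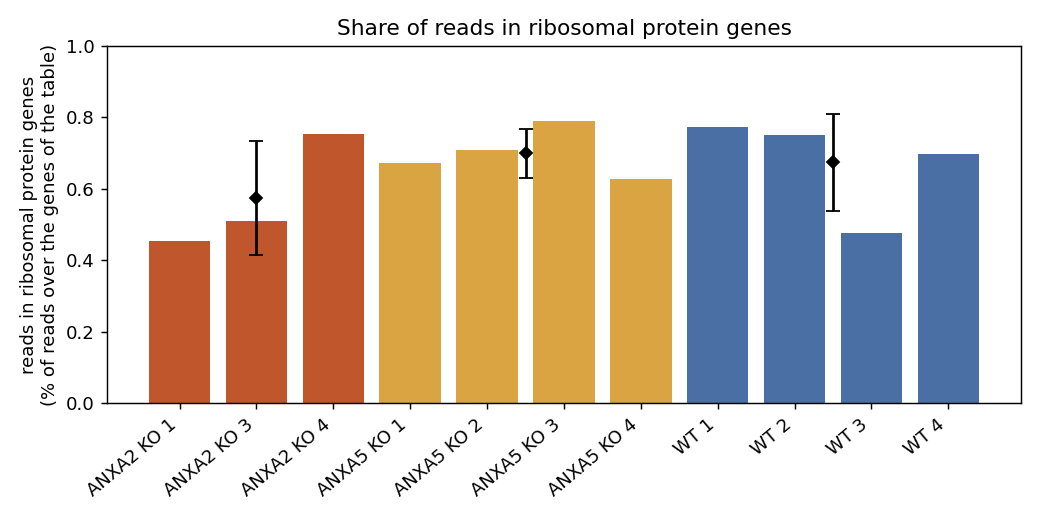
Share of reads that fell in ribosomal protein genes, in percent of the reads over all genes of the table, for each library (bars) with the mean and SD of each group (black diamonds and whiskers). Knockout library 1 of ANXA2 (0.455%) and wild type library 3 (0.477%) were the lowest, and ANXA5 knockout library 3 (0.789%) the highest.

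In the ANXA2 knockout, 0 of 83 members passed the test (limma, adjusted p under 0.05), against 0.112% of all tested genes. At an unadjusted p under 0.05 there were also 0 members, against 8.69% of all. edgeR, DESeq2 and limma-voom called 0 as well, with 1 member each at an unadjusted p under 0.05. Knockout and wild type libraries overlapped in all 83, while 4.63% of all tested genes lay wholly below and 4.56% wholly above the wild type. The authors' deposited table gave an adjusted p under 0.05 to 0 of 84 members, against 0.593% of all genes given one. The fitted log2 fold changes had a median of -0.076, with quartiles of -0.17 and 0.015, and ran from -0.68 to 0.24, against a median of 0.023 over all tested genes. A value below 0 was fitted for 58 of 83 members and for 45.9% of all tested genes. The SD between the wild type library medians was 0.29, more than the median shift. Without knockout library 4 the median was -0.32, and without wild type library 3 it was -0.25, with 80 of 84 and 79 of 83 members below 0. In these 2 fits 0 members were called. An unadjusted p under 0.05 was reached by 8 of 84 and 10 of 83 members, beside 1823 of 16455 and 1833 of 15973 genes tested. Without knockout library 1 it was 0.039 and without knockout library 3 it was 0.003.

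The members with the smallest p on the lower side were mostly abundant ones. Rpl4 had 7782, 8051 and 8655 normalised reads in ANXA2 knockout libraries 1, 3 and 4, against 11609, 10663, 8493 and 9429 in wild type libraries 1 to 4. Its highest knockout library stood just above wild type library 3 and below the other 3. It differed by -0.29 on the log2 scale (95% interval -0.59 to 0.01, SE 0.13, limma adjusted p = 0.573), and in the authors' deposited table it had the smallest adjusted p of all members, 0.531.

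Rps3a1, a small subunit protein near the exit of the mRNA channel, had 2503, 2764 and 3704 normalised reads in the knockout libraries, against 4375, 4042, 2975 and 3813 in the wild type libraries. Knockout libraries 1 and 3 were the lowest, and wild type library 3 lay below knockout library 4. Its log2 fold change was -0.35 (95% interval -0.74 to 0.04). Rpl7, a large subunit protein, had 2553, 2837 and 3451 in the knockout libraries, against 3956, 3701, 2995 and 3693 in the wild type libraries. Rpl6, also of the large subunit, had 2132, 2439 and 2605 in the knockout, against 3044, 3044, 2386 and 2943 in the wild type. In both genes the only wild type library within the knockout range was library 3. Rpl7a had 1640, 1697 and 2131 in the knockout libraries, against 2673, 2456, 1843 and 2042 in the wild type libraries, so that knockout library 4 lay above wild type libraries 3 and 4. The log2 fold changes were -0.29 for Rpl7, -0.25 for Rpl6 and -0.30 for Rpl7a, each with an interval that included 0.

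On the higher side, 4 of the 6 members with the smallest p were mRNAs under 1000 bases in which knockout library 4 was the highest. Rpl38, a large subunit protein needed in mouse embryos for the translation of certain Hox mRNAs, had 257, 310 and 701 normalised reads in the knockout libraries, against 363, 384, 221 and 408 in the wild type libraries. Rpl37 had 896, 904 and 1674 in the knockout, against 1132, 1094, 678 and 1122 in the wild type. Both genes were lower in knockout libraries 1 and 3 than in wild type libraries 1, 2 and 4, and highest in knockout library 4. Rpl35, which sits at the exit of the tunnel, had 1339, 1168 and 1798 in the knockout, against 1465, 1422, 816 and 1445 in the wild type. Rpl28 had 949, 1080 and 1642 in the knockout, against 1173, 1151, 925 and 1230 in the wild type. The log2 fold changes were 0.19 for Rpl38, 0.17 for Rpl37, 0.17 for Rpl35 and 0.10 for Rpl28, and the interval for Rpl38 ran from -0.60 to 0.98. Rps3a2, an annotated pseudogene, had 12.9, 8.89 and 11.2 in the knockout, against 9.54, 13.3, 6.99 and 7.68 in the wild type, too few to read a direction from.

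The stalk is the flexible arm that recruits elongation factors to the ribosome. Its scaffold Rplp0 had 9558, 9788 and 11448 normalised reads in ANXA2 knockout libraries, against 11239, 10963, 9123 and 11562 in wild type libraries. The acidic partner Rplp1 had 1722, 1810 and 2722 in the knockout, against 2242, 2153, 1288 and 2456 in the wild type. The other partner, Rplp2, had 1168, 1373 and 2282 in the knockout, against 1634, 1641, 983 and 1737 in the wild type. In all 3 genes wild type library 3 was the lowest of all libraries. The log2 fold changes were -0.06 for Rplp0 (95% interval -0.35 to 0.23), 0.05 for Rplp1 (-0.51 to 0.60) and 0.08 for Rplp2 (-0.52 to 0.67). Rpsa, a small subunit protein also known as the laminin receptor precursor, had 3173, 4246 and 5152 in the knockout libraries, against 5612, 5472, 4005 and 5309 in the wild type libraries. Its log2 fold change was -0.30 (95% interval -0.72 to 0.12), and only knockout library 1 lay below every wild type library.

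Anxa2 lies on chromosome 9 with 6 tested members and with Rpl29, which is outside the set. By distance on GRCm38, Rps27l lies 2.51 Mb, Rpl4 5.28 Mb and Rplp1 7.54 Mb before it, and Rps25, needed for some forms of internal initiation, farther before it. Rpsa and Rpl14 lie 50.7 and 51.1 Mb after it. Their log2 fold changes were 0.01 for Rps27l, -0.29 for Rpl4, 0.05 for Rplp1, 0.06 for Rps25, -0.30 for Rpsa and -0.20 for Rpl14. Rps25 had 1444, 1598 and 2753 normalised reads in knockout libraries, against 1825, 1940, 1289 and 2212 in wild type libraries. Rpl14 had 1997, 2194 and 2920 in the knockout, against 3134, 2933, 1953 and 2891 in the wild type. Neither gene separated the groups.

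**Figure D3:**
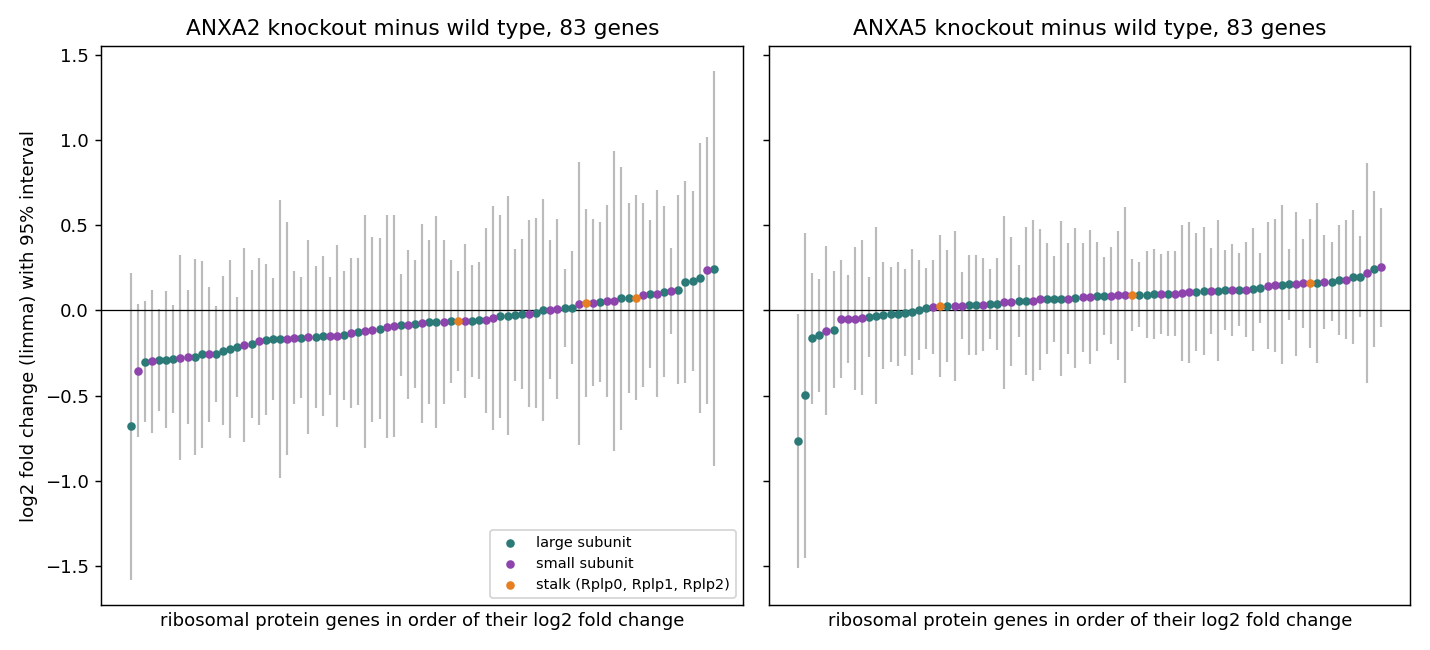
Log2 fold change of each tested ribosomal protein gene with its 95% interval (limma), knockout minus wild type, in the ANXA2 (left) and ANXA5 (right) comparison, in rising order. In the ANXA2 comparison every interval included 0, and in the ANXA5 comparison the interval of Rpl3l alone (-1.51 to -0.02) did not.

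In the ANXA5 knockout, 0 of 83 members passed the test (limma, adjusted p under 0.05), against 0.0308% of all tested genes. At an unadjusted p under 0.05 there was 1, Rpl3l, against 11.9% of all. edgeR, DESeq2 and limma-voom called 0 as well, with 1 member each at an unadjusted p under 0.05. Knockout and wild type libraries overlapped in all 83, while 3.36% of all tested genes lay wholly below and 3.01% wholly above the wild type. The authors' deposited table gave 0 of 83 members an adjusted p under 0.05, against 1.76% of all genes given one, and the smallest, 0.332, was that of Rpl3l. The fitted log2 fold changes had a median of 0.078, with quartiles of 0.026 and 0.12, against 0.011 over all tested genes. A value below 0 was fitted for 17 of 83 members and for 48% of all tested genes. Without wild type library 3 the median was -0.070 and 62 of 83 members were below 0. The wild type libraries are the same as in the ANXA2 comparison, so the 2 comparisons are not independent.

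The members described here with the smallest p on the higher side shared a low wild type library 3. Rpl28 had 1402, 1461, 1509 and 1250 normalised reads in ANXA5 knockout libraries 1 to 4, against 1283, 1260, 1021 and 1349 in wild type libraries 1 to 4. It differed by 0.20 on the log2 scale (95% interval -0.04 to 0.43, SE 0.11, limma adjusted p = 0.475). Rpl13a, known in human cells for a role in silencing certain mRNAs after interferon, had 505, 506, 504 and 471 in the knockout, against 488, 465, 401 and 437 in the wild type. Of the 4 knockout libraries, 3 lay above every wild type library for Rpl13a. Rpl5, which with Rpl11 and 5S rRNA can bind the p53 regulator Mdm2, had 1636, 1831, 1717 and 1726 in the knockout, against 1689, 1641, 1345 and 1657 in the wild type. In each of these 3 genes wild type library 3 was the lowest of all libraries. Rps26, which lines the mRNA exit channel, averaged 1227 ± 179 in the knockout and 1038 ± 195 in the wild type (SD, n = 4 each). The log2 fold changes were 0.15 for Rpl13a, 0.13 for Rpl5 and 0.25 for Rps26, with intervals that included 0.

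The stalk genes and Rpsa did not separate the groups. Rplp0 averaged 12473 ± 338 normalised reads in ANXA5 knockout and 11761 ± 1158 in wild type libraries (SD, n = 4 each), a log2 fold change of 0.09 (95% interval -0.12 to 0.30). Rplp1 averaged 2221 ± 266 in the knockout and 2231 ± 557 in the wild type. For Rplp2 it was 1799 ± 173 in the knockout and 1644 ± 376 in the wild type, and for Rpsa 5926 ± 724 in the knockout and 5593 ± 791 in the wild type. Anxa5 lies on chromosome 3 with 4 tested members: Rpl22l1 at 7.64 Mb before it, and Rps3a1, Rps27 and Rpl34 at 49.7, 53.8 and 94.3 Mb after it. Their log2 fold changes were -0.15 for Rpl22l1, -0.05 for Rps3a1, 0.07 for Rps27 and 0.11 for Rpl34. Rpl34 had 1089, 1380, 1336 and 1019 in the knockout libraries, against 1298, 1197, 786 and 1224 in the wild type libraries, which overlap. On the lower side Rpl30, at 646 ± 54.2 in the knockout and 740 ± 174 in the wild type, had a log2 fold change of -0.16.

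Several members come as paralog pairs, a common form and a related gene, such as the tissue forms Rpl3l and Rpl39l named above. Rpl7 and Rpl7l1 differed in pattern. Rpl7l1 had 2435, 2165 and 2047 normalised reads in ANXA2 knockout libraries, against 2361, 2088, 2105 and 2209 in wild type libraries, a log2 fold change of 0.01 (95% interval -0.22 to 0.24). Knockout library 1, the lowest for Rpl7, was the highest for Rpl7l1. Rps4x, the X-linked small subunit gene, had 1415, 1675 and 2103 in ANXA2 knockout libraries, against 2306, 2235, 1598 and 2220 in wild type libraries. Its annotated pseudogene Rps4l had 624, 674 and 556 in the knockout, against 537, 605, 587 and 552 in the wild type. Knockout libraries 1 and 3 were thus the highest for Rps4l and among the 3 lowest for Rps4x. In the ANXA5 comparison Rps4x averaged 2326 ± 187 in the knockout and 2292 ± 354 in the wild type, and Rps4l 638 ± 44.4 in the knockout and 626 ± 35.3 in the wild type (SD, n = 4 each).

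Rpl22, an RNA-binding large subunit protein, and its paralog Rpl22l1 were both lowest in wild type library 3 among wild type libraries. Rpl22 had 481, 511 and 662 in ANXA2 knockout libraries, against 811, 693, 476 and 638 in wild type libraries. Rpl22l1 had 244, 213 and 301 in the knockout, against 349, 339, 243 and 303 in the wild type. The log2 fold changes were -0.24 for Rpl22 and -0.29 for Rpl22l1 in the ANXA2 knockout, and -0.11 for Rpl22 and -0.15 for Rpl22l1 in the ANXA5 knockout. Within the ANXA5 knockout the order differed, with Rpl22 at 760, 633, 642 and 587 in libraries 1 to 4 and Rpl22l1 at 256, 342, 344 and 280. Library 1 was thus the highest knockout library for Rpl22 and the lowest of all libraries for Rpl22l1. Rps27 had 917, 1022 and 1939 in ANXA2 knockout libraries, against 1479, 1418, 828 and 1440 in wild type libraries. Its p53-induced paralog Rps27l had 849, 766 and 1063 in the knockout, against 1031, 952, 558 and 1085 in the wild type. In both, wild type library 3 was the lowest of all libraries. In ANXA5 knockout library 1, Rps27 was at 1520, against a wild type mean of 1416, and Rps27l at 762, against a wild type mean of 994.

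Rpl3, a large subunit protein near the peptidyl transferase centre, had 4912, 5576 and 6158 in ANXA2 knockout libraries, against 7047, 6904, 5453 and 6352 in wild type libraries. In the ANXA5 comparison Rpl3 had 7632, 7033, 7309 and 7273 in knockout libraries, against 7707, 7557, 6023 and 6965 in wild type libraries. Rpl3l had 15.1, 7.11 and 16.3 in the ANXA2 knockout, against 26.5, 27.4, 16.3 and 13.4 in the wild type of that table. It had 7.42, 14.5, 15.1 and 14.7 in the ANXA5 knockout, against 29.0, 29.9, 18.0 and 14.7 in the wild type of that table. Its log2 fold change was -0.68 in the ANXA2 comparison (95% interval -1.58 to 0.22) and -0.77 in the ANXA5 comparison (-1.51 to -0.02, limma adjusted p = 0.409), at a low level in every library. Rpl39 averaged 237 ± 134 in ANXA2 knockout and 250 ± 69.7 in wild type libraries (SD, n = 3 and 4). Rpl39l was at 25.9, 16.0 and 13.3 in ANXA2 knockout libraries and at 10.4 to 12.3 in ANXA5 knockout libraries. In the wild type libraries of the ANXA5 table it was at 38.2, 7.26, 14.1 and 16.8, with wild type library 1 the highest and library 2 below every knockout library.

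**Figure D4:**
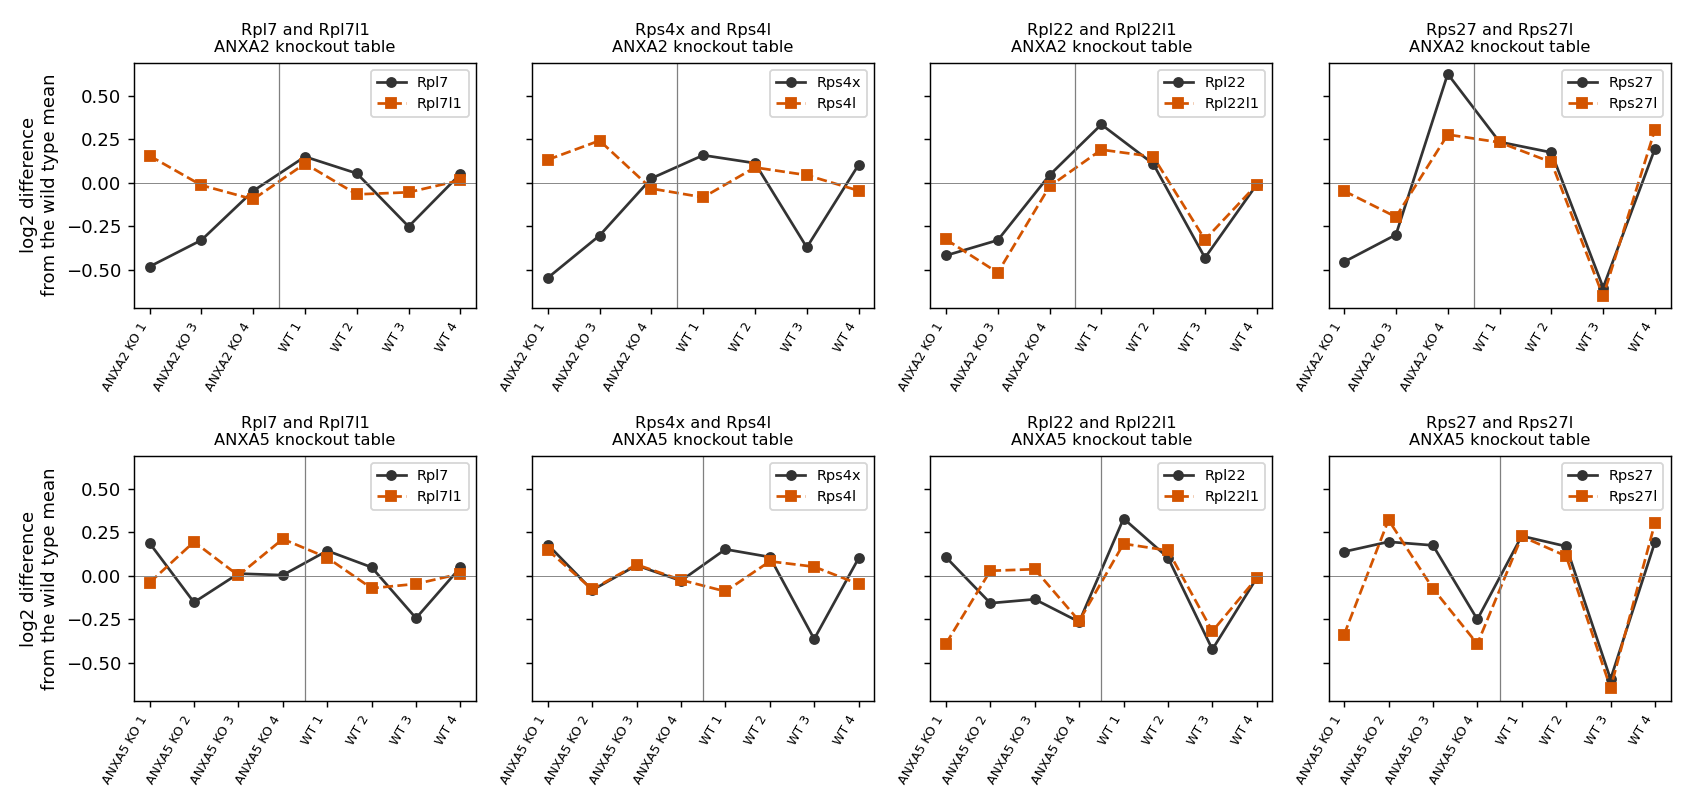
Log2 level relative to the wild type mean of the gene in each library, for 4 paralog pairs in the ANXA2 (top) and ANXA5 (bottom) tables, knockout libraries left of the vertical line. In the ANXA2 table Rpl7 and Rps4x dipped in wild type library 3 and in knockout libraries 1 and 3, where Rpl7l1 and Rps4l lay near or above the wild type mean. Rpl22, Rpl22l1 and Rps27 dipped in the same libraries. Rps27l dipped in wild type library 3 and less so in knockout library 3, and lay near the wild type mean in knockout library 1. In ANXA5 knockout library 1, Rpl22l1 (256) and Rps27l (762) were below the wild type mean while Rpl22 (760) and Rps27 (1520) were above it.

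The shifts of the libraries were also compared by mRNA length. Among mRNAs under 600 bases, the 30 members had medians of -0.38, -0.23 and 0.53 in ANXA2 knockout libraries 1, 3 and 4 and of -0.55 in wild type library 3. The 212 other genes of that length had 0.00, -0.03, 0.51 and -0.31 in the same libraries. Among mRNAs of 1500 bases and more, the 6 members had -0.40, -0.28 and 0.16 in the knockout libraries and -0.34 in wild type library 3, against 0.06, 0.05, -0.01 and 0.04 for 11530 other genes. The high level in knockout library 4 was thus shared by other short mRNAs, with 0.53 and 0.51. The low level of members in knockout libraries 1 and 3 was seen at every length, while other genes stood between -0.03 and 0.06 there at every length. Wild type library 3 was low for other short mRNAs too, but less so than for members. In the ANXA5 table, knockout libraries 2 and 3 were at 0.26 and 0.25 for members under 600 bases and at 0.25 and 0.21 for 214 other genes of that length.

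**Figure D5:**
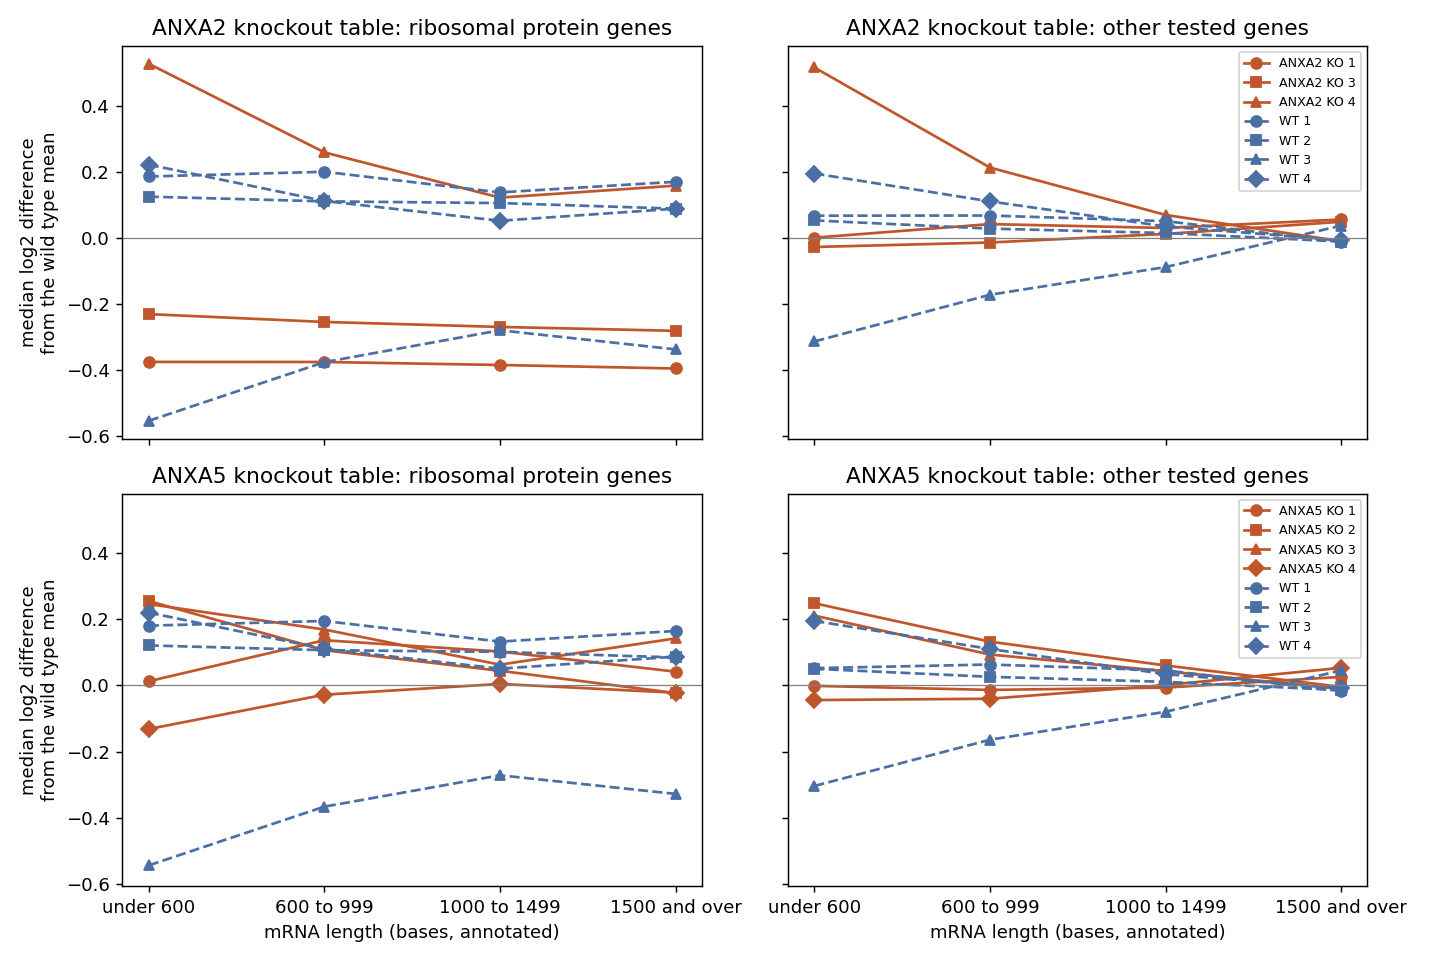
Median log2 level relative to the wild type mean by mRNA length, for ribosomal protein genes (left) and other tested genes (right), with 1 line per library (knockout orange, wild type blue). ANXA2 knockout libraries 1 and 3 were at -0.38 and -0.23 for members under 600 bases and at 0.00 and -0.03 for other genes of that length.

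Other genes of the translation machinery were taken as lists. Of 8 elongation factors, 0 passed the test in either comparison, with medians of -0.13 in the ANXA2 and 0.027 in the ANXA5 comparison. Eef1a1, the factor that delivers aminoacyl-tRNA, averaged 21880 ± 1520 normalised reads in the ANXA2 knockout and 27913 ± 3190 in the wild type (SD, n = 3 and 4). Its log2 fold change was -0.35 (SE 0.14, limma adjusted p = 0.568). Of 18 other RNAs known to carry a TOP motif, 0 passed, with medians of -0.14 and 0.013. Among them, Eif4b, a helper of the initiation helicase, averaged 1963 ± 150 in the ANXA2 knockout and 2356 ± 92.6 in the wild type, and Npm1, a nucleolar chaperone, 2155 ± 301 in the knockout and 2586 ± 277 in the wild type. Of 28 initiation factors 0 passed (medians 0.048 and 0.042), and of 40 ribosome assembly factors 0 passed (0.024 and 0.089). Of 13 genes of RNA polymerase I and its factors, which transcribe ribosomal RNA, 0 passed (-0.052 and 0.12). Of 78 mitochondrial ribosomal protein genes 0 passed (0.050 and 0.049). Of named ribosomal protein pseudogenes, 16 were tested for ANXA2 and 19 for ANXA5, and 0 passed (-0.27 and -0.071).

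Of 19 regulators of ribosomal protein synthesis, 0 passed, with medians of 0.16 and 0.13. Tsc1, a brake on mTORC1, averaged 545 ± 54.1 in the ANXA2 knockout and 707 ± 26.8 in the wild type (SD, n = 3 and 4; log2 fold change -0.38, limma adjusted p = 0.488). Ddit4, a stress-induced inhibitor of mTORC1, averaged 987 ± 220 in the ANXA2 knockout and 595 ± 286 in the wild type. In the ANXA5 table it averaged 1210 ± 486 in the knockout and 654 ± 315 in the wild type. Ipo7, an import receptor for ribosomal proteins, averaged 862 ± 76.6 in the ANXA2 knockout and 1201 ± 186 in the wild type. It belongs to a list of ribosomal protein chaperones and surveillance genes, of which 14 were tested and 0 passed. Of 12 tested mitochondrially encoded genes 0 passed, with a median of -0.73 in the ANXA2 comparison, where 11 were lower at an unadjusted p under 0.05 (4.04% of all tested genes were), and -0.20 in the ANXA5 comparison.

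RNA of other cell types varied between the same libraries. The summed level of 7 neutrophil markers was 259880, 393488 and 631019 normalised reads in ANXA2 knockout libraries 1, 3 and 4, against 280860, 338512, 304140 and 500563 in wild type libraries 1 to 4. That of 8 macrophage markers was 64161, 87446 and 135889 in the knockout, against 65013 to 102030 in the wild type. Lyz2 alone made up most of it, with 60494, 81447 and 128940 in the knockout. The median log2 difference of the 8 from the wild type mean was also lowest in knockout library 1 (-0.69) and highest in knockout library 4 (0.46). By the median of the ribosomal protein genes, knockout library 4 was the highest library and was also the highest for both marker lists. Knockout library 1, with the second lowest median and the lowest share of reads, was the lowest for both lists. Wild type library 3, with the lowest median, was not the lowest for either. Wild type library 1, with the second highest median and the highest share of reads in that table, had the second lowest sum for both lists. Other lists had other orders. Erythroid markers summed to 12079 to 26288 in the ANXA2 knockout, and wild type library 2 was the highest at 51124. Summed endothelial markers were highest in knockout library 3 (4317) and lowest in knockout library 1 (3125). Tek was the largest part of these sums, with 2026 in knockout library 1 and 2888 in wild type library 1. The median log2 difference of the list from the wild type mean had another order. It was lowest in wild type library 1 (-1.16) and highest in wild type library 4 (0.64). B and plasma cell markers were highest in knockout library 4 (19304) and lowest in wild type library 3 (11000). T cell markers were highest in wild type library 2 (322) and lowest in knockout library 3 (125). In the ANXA5 table the macrophage markers summed to 106075 to 126621 in knockout libraries and 71102 to 111881 in wild type libraries, again mostly Lyz2. Of the 8 markers, 7 were higher at an unadjusted p under 0.05, against 6.48% of all tested genes. All 7 neutrophil and all 6 erythroid markers had fitted values above 0 there, with medians of 0.36 and 0.55, and 2 and 1 of them were higher at that p. Of 6 endothelial markers 5 were higher at that p, with a median log2 fold change of 1.25 over the list. The sixth, Tek, was lower at that p, against 5.45% of all tested genes, with 1701, 1723, 1927 and 1585 normalised reads in ANXA5 knockout libraries and 3159, 1931, 2947 and 1888 in wild type libraries. None of these markers passed the adjusted test in either comparison. The part of these cells in the levels of ribosomal protein genes was not tested, and in bulk samples fewer cells of a type and less RNA per cell cannot be told apart.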

How the data were processed

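RNA was sequenced from 11 libraries of mouse bone marrow stromal cells, extracted and prepared, per the labels' protocols, with an RNeasy mini plus kit and NEBNext reagents. Trim Galore, STAR, HTSeq, DESeq2 and the build GRCm39 are named, without versions, in the submitters' processing notes. Each knockout has its own table with the same 4 wild type libraries, and values were compared only within a table. The signal the authors deposited for each gene is the count divided by a size factor of the library. Whole reads were recovered within 0.001 in 100% of values and used for shares of reads and count tools. The log2 fold changes and adjusted p-values the authors deposited are named as such where used, and their score column was not used. ANXA2 knockout columns were assigned to their group without a sample number, and 0 sample columns were left out.

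The main test was limma-trend 3.58.1 (R 4.3.3) on log2(value + 1). A gene was tested when its value reached 10 in at least the number of libraries of the smaller group. Two-sided p-values were adjusted by the Benjamini-Hochberg method over all tested genes, with 0.05 as the threshold. It was tested on simulated data. Alternatives were TMM scaling, edgeR 4.0.16, DESeq2 1.42.0, limma-voom, pseudocounts of 0.5 and 5, no filter, a minimum of 50, a replicate block and leaving out each library. A fold change on this scale understates that of genes with few reads. Distances, mRNA lengths and pseudogene status came from GENCODE vM21 on GRCm38, not the build of the submitters, and a length was found for 81 members. Named members were the 6 smallest p in each direction, the stalk genes and Rpsa, paralog pairs and members on the chromosome of the target, with 2 genes of each other list. A few genes that this rule names are not reported here. Members and lists were chosen with earlier results of these data known. The tables list no gene that had 0 reads in a knockout library. Nor did most wild type libraries hold such genes. Only wild type library 4 did in the ANXA2 table (188 genes) and only wild type library 3 in the ANXA5 table (412 genes).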

Additional observations from a re-analysis of the deposited data

Results flagged for a closer look

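Dixon's test singled out 11 of 68 sets of 4 values, where chance gives about 1 in 20. Wild type library 3 was far below the other wild type libraries for the median of the members (-0.43 on the log2 scale) and for 7 single members. Its normalised reads were 816 for Rpl35, 678 for Rpl37, 1218 for Rpl5, 2386 for Rpl6, 983 for Rplp2, 828 for Rps27 and 1598 for Rps4x. These genes share the library and are not independent. Among ANXA5 knockout libraries, library 4 was far below the others for Rpl13a (471) and Rps27 (1160), and library 1 for Rpl3l (7.42).

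Rpl3 was below the wild type mean in all 3 ANXA2 knockout libraries and above it in all 4 ANXA5 knockout libraries on the log2 scale. The lowest of these ANXA5 knockout libraries was only just above that mean, and was below the wild type mean of the normalised reads themselves. The fitted log2 fold changes were -0.21 and 0.056, neither past the threshold, and their difference was not tested.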

How the results depend on the processing

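No ribosomal protein gene was called under any alternative, and over the named members the smallest adjusted p of any alternative was 0.390 for ANXA2 and 0.201 for ANXA5. The median log2 fold change of members ranged from -0.32 to 0.039 for ANXA2 and from -0.070 to 0.13 for ANXA5 when 1 library was left out. The difference in share of reads ranged from -0.192 to -0.0424 percentage points for ANXA2 and from -0.0406 to 0.0581 for ANXA5. Over all tested genes, DESeq2 called 107 genes for ANXA2, against 18 with limma, and 278 for ANXA5, against 5. With 1 library left out, 8 to 16 genes were called for ANXA2, and 4 to 32 for ANXA5. The 32 were found without wild type library 4. The cause of these differences was not tested.

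With the replicate block, 8 genes were called for ANXA5. Deviations of same-numbered libraries correlated at 0.049, -0.075, -0.252 and 0.067. Such small values show no pairing by number but cannot exclude it, and the labels do not state whether samples were paired. No paired analysis was possible for ANXA2 because its column numbers differ from those of the titles. Leaving out 1 ANXA2 knockout library moved 4 named members by more than the spread between wild type libraries, among them Rpl38, which was at -0.25 without library 4. At 3 and 4 libraries a group and a median standard error of 0.22 for ANXA2 and 0.15 for ANXA5, small changes of single members were not detectable.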
